A study of Mus musculus with 23 samples.

Results

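A total of 18414 cells with transcripts of Dntt and little sign of B-lineage commitment were found among 78945 cells of mouse bone marrow, a share of 23.3%. They were chosen by their own RNA: at least 2 unique transcript counts (UMIs) of Dntt, and UMIs of fewer than 3 of the B-lineage genes Ebf1, Vpreb1, Vpreb3, Igll1, Cd79a and Pax5. The levels of these 7 genes are therefore given as description only. All cells came from the KSL gate (c-Kit-positive, Sca1-positive and lineage-negative), which holds blood stem cells and their earliest progeny.

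Dntt encodes terminal deoxynucleotidyl transferase, the enzyme that adds nucleotides without a template at the joins of rearranging antigen receptor genes. Its transcript appears in lymphoid-primed multipotent progenitors, which carry much Flt3 receptor, before Rag1 and Rag2 and the B-lineage factors Ebf1 and Pax5 are strongly expressed. Ezh2 is a catalytic subunit of Polycomb repressive complex 2 (PRC2), which places a repressive methyl mark on histone H3, and Jarid2 is an accessory subunit of the same complex. The study compared loss of each.

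All animals, Controls included, carried Mx1-Cre, a recombinase transgene that acts in blood cells and in other interferon-responsive tissues. Knockouts (KO) carried floxed alleles of Jarid2 or of Ezh2. The baseline experiment held 6 libraries from mice that were 2 months old and had received no transplant. Control, Jarid2 KO and Ezh2 KO each had a male library, replicate 1, and a female library, replicate 2. The transplant experiment held 5 libraries of CD45.2 donor KSL cells, 1 Control, 2 Jarid2 KO and 2 Ezh2 KO. They were sorted 18 weeks after 500000 donor cells had been given together with as many CD45.1 competitor cells to lethally irradiated hosts. The labels do not say which exons were removed, or whether the cells of several hosts were pooled. No source used here says that same-genotype transplant libraries came from separate hosts, so p-values measure only the spread between these libraries.

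The selected cells numbered 10399 at baseline and 8015 after transplantation, from 661 cells in the transplant Control to 2728 in 1 Ezh2 KO library. Their median depth was 12926 to 14666 UMIs per cell in baseline and 11833 to 18751 in transplant libraries. All 55 pairs of libraries shared between 5 and 34 cell barcodes, and no pair shared more than 4 barcodes of selected cells. The transplant libraries stood apart in 2 ways. Between 25.7% and 43.4% of their barcodes exceeded 10% mitochondrial UMIs, against 2.82% to 5.82% at baseline, and were left out. Their sex also differed: cells with Xist and no Y-linked UMIs made up 62.9% of the selected Control cells, 52.1% and 52.3% in Jarid2 KO, and 0% and 0.0390% in Ezh2 KO. Transplant results are therefore also given for male cells only, for some of the calls that this ends. The male-only Control sum held 129 cells and 2285230 UMIs, against 661 cells and 11605979 UMIs with both sexes. A call lost there cannot be assigned to sex rather than to fewer counts.

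The neighbours of the selection were 47078 cells with no Dntt UMI and 5061 cells with Dntt and 3 or more of the B-lineage genes. Within each of the 11 libraries the selected cells were set beside both neighbours. The second neighbour held only 7 cells with 74807 UMIs in transplant Control, and 28 and 42 cells in transplant Jarid2 KO. Its levels in these libraries rest on few UMIs, yet they enter its transplant means and the counts of libraries like any other. These contrasts follow from the selection itself, so they describe the cells and are not read as tests. Levels are CPM, UMIs of a gene relative to all UMIs of the summed cells, after scaling by the trimmed mean of M-values (TMM), as means over the libraries of an experiment. For orientation, 21.2% of genes lay higher and 25.2% lower than in cells without Dntt past a false discovery rate (FDR) of 0.05 in edgeR. Against the cells with 3 or more B-lineage genes the shares were 40.4% and 31.0%. Counts of listed genes that lay higher or lower than a neighbour use the same threshold. A listed gene left out of such a count may still have differed.

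The 3 marker genes besides Dntt went with the label only in part. Cmah, which encodes a sialic acid hydroxylase, stood at 73.6 CPM at baseline and 52.0 after transplantation in the selected cells. In cells without Dntt it stood at 3.68 and 1.05, and in the cells with 3 or more B-lineage genes at 32.0 and 33.9. It was higher than in either neighbour in all 11 libraries. Arpp21, which encodes an RNA-binding phosphoprotein, stood at 108 and 85.7 CPM, against 5.75 and 5.55 without Dntt and 336 and 146 in the cells with 3 or more B-lineage genes. Ly6d, a surface protein that marks B-biased lymphoid progenitors, stood at only 25.3 and 40.7 CPM, against 369 and 425 in those cells. It exceeded the cells without Dntt in 9 of 11 libraries. Arpp21 and Ly6d were thus higher in the cells with 3 or more B-lineage genes than in the selected cells in all 11 libraries.

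Receptors of lymphoid progenitors were mostly higher than in cells without Dntt. Flt3, the receptor for FLT3 ligand, stood at 497 CPM at baseline and 261 after transplantation, above both neighbours in all 11 libraries (150 and 51.4 without Dntt, 79.4 and 80.8 with 3 or more B-lineage genes). Il7r, the interleukin-7 receptor chain on which common lymphoid progenitors depend, stood at 25.8 and 42.4 CPM, against 11.5 and 5.50 without Dntt and 319 and 273 in the B-lineage neighbour. Ccr9, a chemokine receptor that guides progenitors to the thymus, stood at 34.3 and 35.2 CPM, above both neighbours in all 11 libraries. For so low a gene the 7 cells of the B-lineage neighbour in transplant Control are too few to compare. Notch1, the receptor that instructs T-lineage fate, stood at 77.2 and 116 CPM, against 23.3 and 31.6 without Dntt. Kit, which defines the gate, was lower than in cells without Dntt in all 11 libraries (202 and 149 against 281 and 180 CPM) and higher than in the B-lineage neighbour in all 11. Of the 14 listed lymphoid receptors 11 lay higher and 1 (Kit) lower than without Dntt, with a median log2 difference of 0.59, against -0.02 over all genes.

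Among lymphoid transcription factors, 10 of 19 lay higher and 5 lower than without Dntt. Satb1, a chromatin organiser of lymphoid progenitors, stood at 353 CPM at baseline and 257 after transplantation, against 78.2 and 65.1. Of 15 listed recombination genes 5 lay higher and 1 lower than without Dntt (median log2 difference 0.08). Against the B-lineage neighbour 4 lay higher and 8 lower (median -0.29). Rag1 and Rag2 were present at low levels. Rag1, a subunit of the recombinase, stood at 2.97 and 3.95 CPM in the selected cells, at 0.220 and 0.157 without Dntt, and at 127 and 142 in the B-lineage neighbour. Rag2, its partner, stood at 7.04 and 12.1 CPM, against 0.445 and 1.30 without Dntt. Lef1, a factor of early B cells, stood at 1.80 and 0.287 CPM, against 706 and 188 in the B-lineage neighbour. All 15 listed early B genes outside the selection rule lay lower than in it, with a median log2 difference of -5.26. Against cells without Dntt, 6 of the 15 lay higher, Rag1, Il7r and Blnk among them, and 3 lower (median 0.28).

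Stem cell and other lineage genes were lower than in cells without Dntt. All 15 stem genes lay lower (median log2 difference -1.43). Procr, the endothelial protein C receptor of stem cells, stood at 8.83 and 7.79 CPM against 27.5 and 13.6. All 12 megakaryocyte and erythroid genes (median -2.42) and all 6 basophil and mast cell genes measured (median -2.60) lay lower as well. Pf4, platelet factor 4, stood at 6.14 and 5.56 CPM against 109 and 33.9, and Gata1, the erythroid master regulator, at 1.09 and 0.905 against 9.22 and 6.59. Of 14 myeloid genes 10 lay lower and 2 higher. Those higher were Csf1r, the receptor for macrophage colony-stimulating factor, and Irf8, a factor of monocytes and dendritic cells (44.8 and 204 CPM against 22.1 and 126). Mpo, the granule peroxidase, stood at 90.6 CPM at baseline and 1183 after transplantation, against 106 and 4312 without Dntt. The experiments also differ in counting software, so levels are not compared between them.

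Cycling genes separated the selected cells from the B-lineage neighbour. Mki67, a marker of dividing cells, stood at 200 and 456 CPM, against 139 and 372 without Dntt and 640 and 1026 in the neighbour. All 15 listed genes of the G2 and M phases lay lower than in the neighbour (median log2 difference -1.34), and 8 of 15 lay higher than without Dntt.

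Surface protein gave a measurement that the selection did not use. The 6 baseline libraries were stained with barcoded antibodies to CD135 (the Flt3 protein), CD48, CD117 (Kit), CD150, CD201 (the Procr protein) and, through streptavidin, Sca1. Levels are log2 of the mean UMIs per cell of a class, centred over the 6 antibodies. The median selected cell carried 84 to 138 CD135 UMIs, against 22 to 34 in the other cells of the same libraries. The difference was 1.59 on the log2 scale (SD 0.186, n = 6), higher in 6 of 6 libraries (exact sign-flip permutation test, two-sided, p = 0.03125, the smallest that 6 libraries allow; 0.0375 after Benjamini-Hochberg (BH) adjustment over 6 antibodies). CD48, a marker that stem cells lack, was also higher in 6 of 6 libraries, by 0.99 (SD 0.267). Its median ran from 1014 to 2097 UMIs in selected cells and from 338 to 1320 in the others, so the medians overlapped across libraries, while within each library the median of the selected cells was the higher.

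The stem cell antibodies were lower. CD150 was lower by 1.55 (SD 0.194) in 6 of 6 libraries, with medians of 8 to 15 UMIs against 14 to 27. CD201 fell by 0.73 (SD 0.141) and Sca1 by 0.21 (SD 0.0912) in 6 of 6 libraries each. For CD48, CD150, CD201 and Sca1 the exact permutation p was again 0.03125, with an adjusted p of 0.0375. CD117 differed by -0.08 (SD 0.0799), higher in 1 of 6 libraries, and did not pass (exact permutation p = 0.09375, also after adjustment). This depends on the scale. In mean UMIs, median UMIs and share of antibody UMIs, CD117 was lower in 6 of 6 libraries (exact permutation p = 0.03125 each, also after adjustment). High CD135 and CD48 with low CD150 is the surface profile by which MPP4, the lymphoid-primed multipotent progenitor, is usually sorted. The other cells included the B-lineage neighbour, which is described here without a test. Its centred CD48 was 3.75 to 4.44, above the selected cells of each library. In mean UMIs, however, its CD48 was lower than in selected cells in Ezh2 KO. There it stood at 2172 against 2249 in the male and 1802 against 2165 in the female library. Its CD135 was -2.45 to -1.42, below the selected cells of each library. Its CD150 was -2.79 to -1.87, in each library between the selected cells and all other cells. In mean UMIs its CD150 was 19.6 in female Control, below the 21.4 of the selected cells. Between genotypes the exact permutation test cannot pass, since 2 libraries against 2 allow no p lower than 0.333, and no other test was run. CD48 had the widest gap. Its centred log2 level was 3.71 and 3.102 in male and female Control, 3.24 and 2.92 in Jarid2 KO and 3.82 and 3.57 in Ezh2 KO, in the same order in both sexes.

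**Figure D1:**
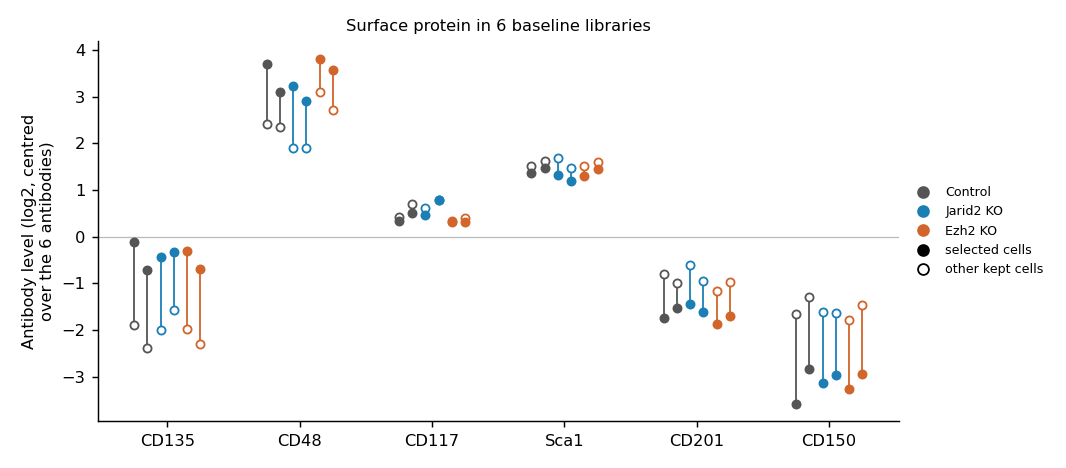
Antibody levels (log2 of mean UMIs per cell, centred over the 6 antibodies) in selected cells (filled) and other cells (open) of each of the 6 baseline libraries, coloured by genotype. A line joins both classes of a library. CD135 and CD48 were higher in the selected cells of 6 of 6 libraries, and CD150, CD201 and Sca1 lower in 6 of 6. CD117 changed little on this centred scale.

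The selected cells were not uniform. Their median Dntt level was 4 to 7 UMIs in baseline and 7 to 13 UMIs in transplant libraries. Between 128 and 416 cells per library had exactly 2 Dntt UMIs, just inside the limit, and 415 to 944 had exactly 1, just outside. Between 57.6% and 92.9% detected no B-lineage gene of the rule at all. At the other limit, 2 to 216 cells per library had exactly 2 of those genes, and 0 to 47 otherwise eligible cells had exactly 3.

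Cmah, Il7r, Rag1 and Ly6d were highest in the cells with most Dntt UMIs, but at baseline not all lymphoid genes climbed with Dntt. Since Dntt itself made these bins and deeper cells hold more UMIs of every gene, the bins are a description. From cells with 2 Dntt UMIs to cells with 3 to 4, with 5 to 9 and with 10 or more, the median Cmah level over baseline libraries ran 16.3, 23.1, 48.1 and 161 CPM. After transplantation it ran 2.70, 8.23, 15.5 and 83.7 CPM. The median Il7r level over libraries remained below 10 CPM up to 9 Dntt UMIs (single libraries reached 17.3) and then stood at 65.7 CPM at baseline and 69.8 after transplantation. Rag1 likewise ran 0.689, 1.04, 1.58 and 6.09 CPM at baseline, and Ly6d 0.750, 6.49, 9.26 and 45.3. Ccr9 ran 25.1, 25.9, 35.5 and 31.8 CPM at baseline, and Sox4, a lymphoid transcription factor, changed little there (434, 439, 442 and 454 CPM). After transplantation Ccr9 ran 0, 1.45, 6.14 and 10.7 CPM in Control, and 9.37, 17.7, 34.1 and 66.3 in Ezh2 KO replicate 1. In Jarid2 KO replicate 1 it ran 15.8, 16.2, 16.5 and 38.8 CPM. Sox4 climbed in the same libraries, from 525 to 630, from 583 to 742 and from 537 to 600 CPM between the end bins.

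A stem gene ran the other way. Hlf, a stem cell transcription factor, ran 531, 492, 400 and 231 CPM at baseline and 174, 159, 126 and 53.2 after transplantation. Flt3 changed less, from 459 to 643 CPM at baseline and from 148 to 270 after transplantation between the lowest and highest bins. Cells with 1 or 2 B-lineage genes had more Ly6d than cells with none, with baseline medians of 7.74, 53.9 and 348 CPM for 0, 1 and 2 genes, and more Il7r (19.9, 56.3 and 120 CPM).

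**Figure D2:**
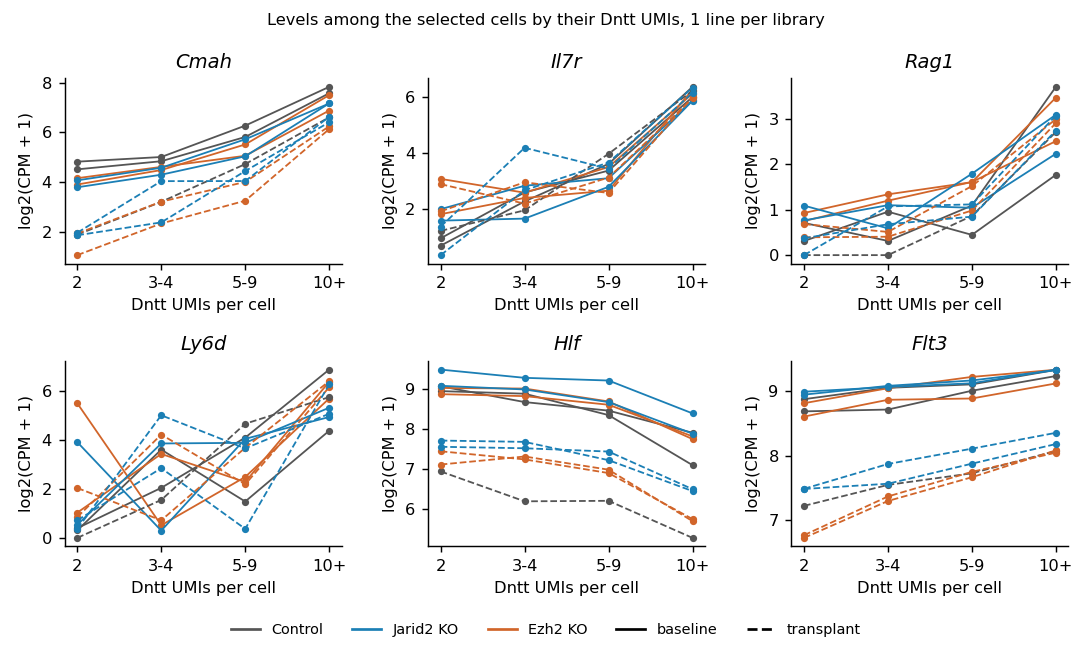
Levels of 6 genes (log2 of CPM + 1) among selected cells with 2, 3 to 4, 5 to 9 and 10 or more Dntt UMIs, 1 line per library, solid for baseline and dashed for transplant. Cmah climbs with Dntt in all 11 libraries, Il7r, Rag1 and Ly6d are highest at 10 or more but vary between libraries below that, Hlf is lowest at 10 or more, and Flt3 climbs less steeply than Cmah.

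The share of selected cells was set side by side between genotypes. At baseline 1364 of 7162 male (19.05%, exact binomial 95% interval 18.1% to 20.0%) and 1523 of 8451 female (18.0%, 17.2% to 18.9%) Control cells were selected. In Jarid2 KO the shares were 18.4% (17.5% to 19.3%) and 14.7% (13.9% to 15.5%), and in Ezh2 KO 27.3% (26.4% to 28.2%) and 23.8% (23.0% to 24.6%). Both Ezh2 KO libraries lay above all other baseline libraries, and the female of each genotype lay below the male. The means were 18.5% ± 0.724 (SD, n = 2) in Control, 16.5% ± 2.63 in Jarid2 KO and 25.5% ± 2.45 in Ezh2 KO. Ezh2 KO exceeded Control by 6.99 percentage points, or 1.38-fold (exact permutation p = 0.333, the smallest possible), and Jarid2 KO was 2.00 points below Control (exact permutation p = 0.667).

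After transplantation 661 of 4663 Control cells were selected (14.2%, exact 95% interval 13.2% to 15.2%). The Jarid2 KO libraries had 18.4% (17.4% to 19.4%) and 19.6% (18.5% to 20.6%), and the Ezh2 KO libraries 41.1% (39.9% to 42.3%) and 40.6% (39.4% to 41.8%). No 2 genotypes overlapped. Ezh2 KO was 2.88-fold and 26.7 percentage points above Control, and Jarid2 KO 4.79 points above it. With 1 Control library the exact permutation p cannot go below 0.333. In male cells only the shares were 15.3% in Control, 18.0% and 20.2% in Jarid2 KO, and 43.7% and 42.3% in Ezh2 KO, so the order held within 1 sex. Intervals cover counting error only.

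Depth and free RNA can raise a share of cells with UMIs. With every cell thinned to 5000 UMIs (363 to 828 shallower transplant cells and 346 to 731 baseline cells left out per library), the shares were 13.5% and 11.5% in baseline Control, 11.1% and 8.19% in Jarid2 KO and 20.0% and 16.9% in Ezh2 KO. After transplantation they were 10.1% in Control, 13.7% and 14.6% in Jarid2 KO, and 31.9% and 33.5% in Ezh2 KO. As background, cells with at least 4 of 9 megakaryocyte and erythroid genes, which should lack Dntt, met the selection in 0.8% to 3.83% before and 0% to 1.40% after thinning in 9 of the 11 libraries. In the transplant Ezh2 KO libraries they met it in 15.2% and 7.65% before and in 5.08% and 4.62% after thinning. The background was thus also highest in these libraries, and its part in their shares was not tested. The median depth of these background cells was 15465 to 26334 UMIs before thinning.

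The excess at baseline was smaller without B-lineage genes. When only cells with no B-lineage gene were counted, the baseline shares were 14.7% and 16.6% in Control, 16.3% and 13.2% in Jarid2 KO, and 15.7% and 18.2% in Ezh2 KO. The genotypes then overlapped, although within each sex Ezh2 KO still lay above Control. After transplantation this stricter selection still gave 13.2% in Control, 16.1% and 17.3% in Jarid2 KO, and 27.9% and 29.7% in Ezh2 KO. Cells with Dntt and 3 or more B-lineage genes, the neighbouring stage, made up 43.1% and 32.2% of Dntt cells in baseline Ezh2 KO, against 27.1% and 10.7% in Control and 13.3% and 17.2% in Jarid2 KO. After transplantation they made up 14.5% and 10.1% in Ezh2 KO, 2.72% and 3.81% in Jarid2 KO and 1.05% in Control. Dntt itself, given without a test, stood at 857 and 652 CPM in the baseline Control selection, 561 and 482 in Jarid2 KO and 792 and 694 in Ezh2 KO. After transplantation it stood at 848 CPM in Control, 833 and 945 in Jarid2 KO and 1212 and 1235 in Ezh2 KO.

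**Figure D3:**
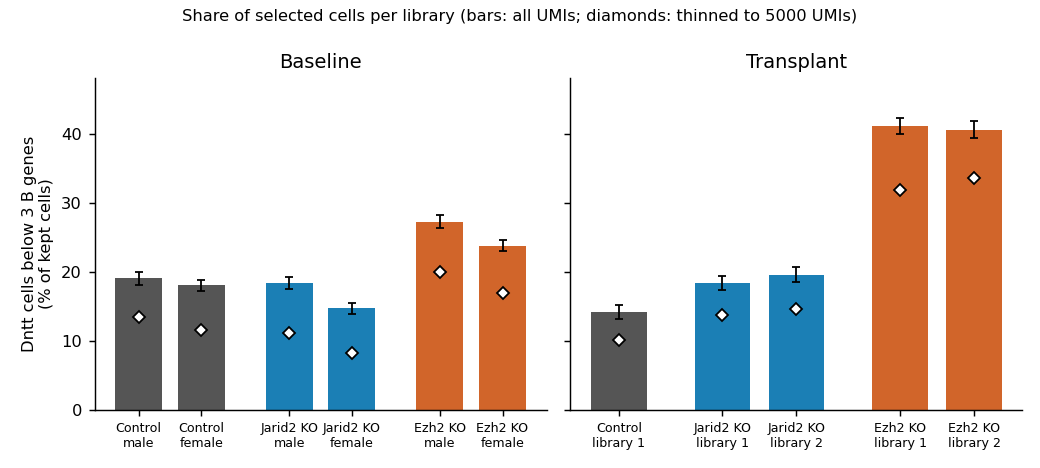
Share of kept cells that were selected, in percent, per library (bars, with exact binomial 95% intervals) and after thinning every cell to 5000 UMIs (diamonds). The transplant Ezh2 KO libraries stand at 41.1% and 40.6%, above every other library.

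Gene expression of the selected cells was then compared between genotypes with edgeR on the UMIs summed per library, with sex as a term at baseline. All 3 genotypes shared one estimate of spread, and the lone transplant Control library was taken to have the same spread as the knockouts. Both knockout contrasts share the Control libraries, so their agreement is no separate evidence. The targeted genes came first. Ezh2 stood at 215 and 207 CPM in baseline Control and at 142 and 156 in Ezh2 KO, and fell by 0.50 on the log2 scale (SE 0.07, edgeR FDR 0.0155). After transplantation it stood at 207 CPM in Control and at 40.0 and 45.3 in Ezh2 KO, and fell by 2.28 (SE 0.13, edgeR FDR 0.000718). Jarid2 was not lower in the libraries labelled Jarid2 KO. Its level was 160 and 146 CPM in baseline Control and 251 and 259 in Jarid2 KO (log2 change 0.74, SE 0.06, edgeR FDR 0.00628). After transplantation the values were 42.4 CPM in Control and 80.7 and 74.5 in Jarid2 KO (0.87, edgeR FDR 0.124). The libraries count the ends of transcripts, which does not check a deletion elsewhere in the gene. No other of the 12 listed PRC2 genes passed against Control in either knockout.

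At baseline edgeR tested 14892 genes and called 57 higher (0.383%) and 89 lower (0.598%) in Jarid2 KO, and 150 higher (1.01%) and 49 lower (0.329%) in Ezh2 KO. Without the sex term it called 0 genes in Jarid2 KO (1304 genes had an unadjusted p under 0.05; DESeq2, with the sex term, called 190) and 2 in Ezh2 KO. The baseline calls below therefore rest on removing the male to female difference. After transplantation, of 13468 genes, 13 were higher (0.0965%) and 6 lower (0.0446%) in Jarid2 KO, and 204 higher (1.51%) and 114 lower (0.846%) in Ezh2 KO. In sums over cells, fewer cells with a transcript and less of it per cell look alike, and they were not separated here.

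Hmga2, Mycn and Ccr9 were higher in both knockouts and in both experiments. Hmga2 encodes a chromatin-bound protein that is high in fetal blood stem cells. Its level was 52.4 and 53.2 CPM in baseline Control, 76.7 and 98.6 in Jarid2 KO and 185 and 175 in Ezh2 KO, and no 2 genotypes overlapped. The log2 changes were 0.72 in Jarid2 KO (SE 0.10, edgeR FDR 0.0314) and 1.77 in Ezh2 KO (SE 0.10, edgeR FDR 0.000853). The call in Jarid2 KO was lost without Control replicate 2 or Jarid2 KO replicate 2, whereas the Ezh2 KO call held in all 15 alternatives. After transplantation Hmga2 stood at 15.3 CPM in Control, 40.9 and 42.7 in Jarid2 KO and 83.0 and 84.2 in Ezh2 KO (edgeR FDR 0.0197 and 0.000577). In male cells only its change in Jarid2 KO was 0.59 (edgeR FDR 0.596), against 1.45 in all cells.

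Mycn encodes a transcription factor of the Myc family that drives growth of early progenitors. Its baseline level was 14.2 and 18.1 CPM in Control, 29.2 and 43.3 in Jarid2 KO and 29.3 and 31.7 in Ezh2 KO. Both knockouts lay above Control and overlapped each other, with log2 changes of 1.15 (SE 0.11, edgeR FDR 0.00996) and 0.93 (SE 0.11, edgeR FDR 0.0105). After transplantation Mycn stood at 5.26 CPM in Control, 24.9 and 30.0 in Jarid2 KO and 38.5 and 35.9 in Ezh2 KO. The changes were 2.38 (SE 0.19, edgeR FDR 0.0142) and 2.82 (SE 0.19, edgeR FDR 0.00131). In male cells only the Jarid2 KO change was 2.74 and did not pass (edgeR FDR 0.0795).

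Ccr9 stood at 30.2 and 9.25 CPM in baseline Control, 54.1 and 26.8 in Jarid2 KO and 78.9 and 27.8 in Ezh2 KO. The male exceeded the female in each genotype, so the groups overlapped, but within each sex both knockouts lay above Control. The log2 changes were 1.12 (SE 0.14, edgeR FDR 0.0232) and 1.45 (SE 0.14, edgeR FDR 0.00466). After transplantation Ccr9 stood at 6.35 CPM in Control, 28.4 and 27.7 in Jarid2 KO and 48.3 and 48.4 in Ezh2 KO, changes of 2.14 (SE 0.14, edgeR FDR 0.00927) and 2.93 (SE 0.13, edgeR FDR 0.000521). Both transplant calls held in all 13 alternatives, male cells only included.

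Other genes passed in both knockouts after transplantation. Il18r1, the ligand-binding chain of the interleukin-18 receptor, stood at 13.2 CPM in Control, 42.6 and 40.0 in Jarid2 KO (log2 change 1.65, edgeR FDR 0.0142) and 52.9 and 54.3 in Ezh2 KO (2.03, edgeR FDR 0.00109). Itsn1, an endocytic scaffold protein, stood at 9.80 CPM in Control and was higher in Jarid2 KO (50.3 and 53.8) than in Ezh2 KO (24.4 and 24.2). Igf2r, the imprinted receptor that clears insulin-like growth factor 2, stood at 6.35 CPM in Control, 28.7 and 37.3 in Jarid2 KO and 27.3 and 28.1 in Ezh2 KO. In male cells only its Jarid2 KO call was lost (2.24, edgeR FDR 0.0692). At baseline Airn, a noncoding RNA that overlaps Igf2r on the opposite strand, stood at 35.3 and 57.7 CPM in Control and at 87.9 and 151 in Jarid2 KO (1.35, SE 0.08, edgeR FDR 0.00144). The strand rule of the counting is not given, so reads of Airn and Igf2r cannot be told apart.

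Slc16a11 and Ddx4 were higher in Jarid2 KO than in Ezh2 KO after transplantation. Slc16a11, a monocarboxylate transporter, stood at 15.1 and 13.5 CPM in baseline Control, 35.4 and 38.9 in Jarid2 KO and 27.7 and 24.7 in Ezh2 KO. After transplantation it stood at 15.2 CPM in Control, 33.8 and 35.5 in Jarid2 KO (1.18, edgeR FDR 0.0277) and 16.5 and 16.6 in Ezh2 KO. Ddx4, a germ cell RNA helicase, stood at 9.62 CPM in transplant Control, 35.8 and 35.7 in Jarid2 KO (1.89, edgeR FDR 0.0111) and 12.9 and 12.2 in Ezh2 KO. Ddx4 was also higher in the selected cells than in cells without Dntt in all 11 libraries (log2 difference 2.68). Jarid2 KO minus Ezh2 KO was 1.06 for Slc16a11 and 1.51 for Ddx4 (edgeR FDR 0.00148 and 0.000401). In male cells only neither passed in Jarid2 KO (edgeR FDR 0.596 and 0.333).

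**Figure D4:**
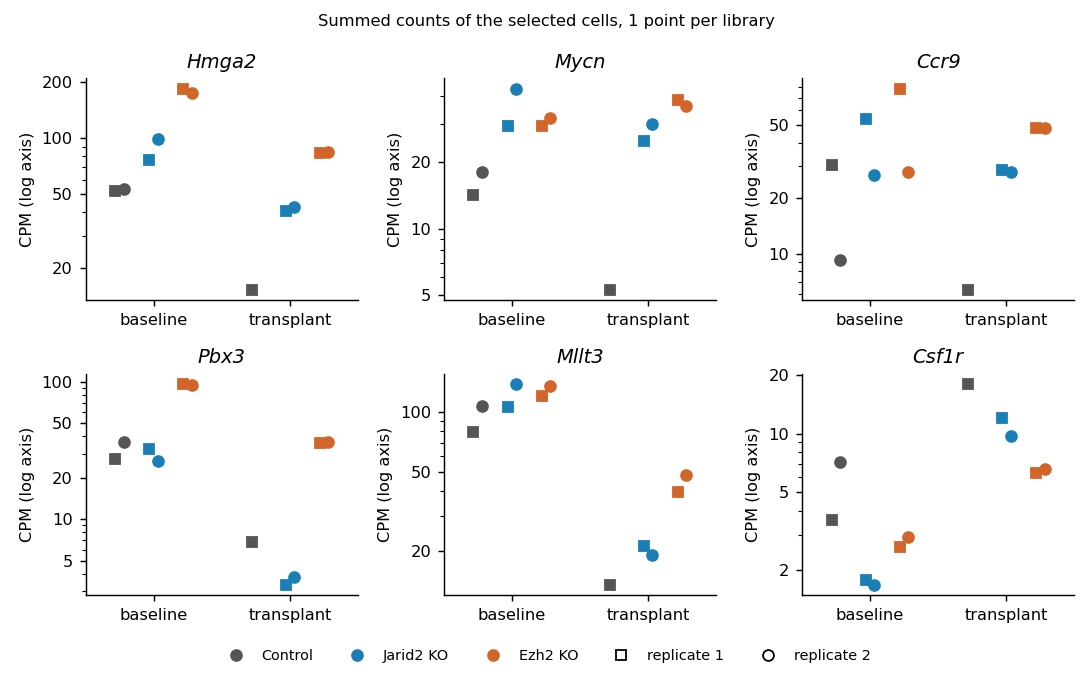
CPM (log axis) of 6 genes in the summed selected cells, 1 point per library, squares for replicate 1 and circles for replicate 2, coloured by genotype. Transplant Ezh2 KO libraries stand above Control and Jarid2 KO for Hmga2, Mycn, Ccr9, Pbx3 and Mllt3, and below them for Csf1r.

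The promoters of 5 genes are shown for orientation, since Polycomb target promoters are commonly rich in CG dinucleotides. They are Dntt, which chose the cells, Hmga2, Mycn and Ccr9, which were higher in both knockouts, and Mab21l2, which was at 0 UMIs in transplant Control. Each line gives the 250 bases before the RefSeq gene start in GRCm38.p6, 5′ to 3′ on the strand of the gene, with CG (the same on both strands) in capitals. Hmga2 lies at chr10:120476470-120476719 on the minus strand with 8 CG, Mycn at chr12:12941837-12942086 on the minus strand with 11, and Ccr9 at chr9:123766961-123767210 on the plus strand with 3. Mab21l2 lies at chr3:86548284-86548533 on the minus strand with 10, and Dntt at chr19:41029025-41029274 on the plus strand with 2.
Hmga2: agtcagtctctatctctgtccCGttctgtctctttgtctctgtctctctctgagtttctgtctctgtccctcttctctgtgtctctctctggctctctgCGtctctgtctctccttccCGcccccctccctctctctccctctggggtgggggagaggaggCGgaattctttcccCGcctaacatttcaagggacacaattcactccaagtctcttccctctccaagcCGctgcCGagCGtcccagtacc
Mycn: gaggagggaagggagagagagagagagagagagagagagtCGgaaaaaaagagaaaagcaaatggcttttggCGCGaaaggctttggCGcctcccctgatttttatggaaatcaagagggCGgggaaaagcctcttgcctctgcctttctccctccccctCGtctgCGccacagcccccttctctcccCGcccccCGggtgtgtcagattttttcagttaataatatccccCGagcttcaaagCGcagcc
Ccr9: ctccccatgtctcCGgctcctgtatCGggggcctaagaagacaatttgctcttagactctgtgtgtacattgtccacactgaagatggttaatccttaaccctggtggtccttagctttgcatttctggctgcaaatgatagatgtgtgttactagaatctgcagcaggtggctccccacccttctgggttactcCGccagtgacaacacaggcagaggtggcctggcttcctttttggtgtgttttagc
Mab21l2: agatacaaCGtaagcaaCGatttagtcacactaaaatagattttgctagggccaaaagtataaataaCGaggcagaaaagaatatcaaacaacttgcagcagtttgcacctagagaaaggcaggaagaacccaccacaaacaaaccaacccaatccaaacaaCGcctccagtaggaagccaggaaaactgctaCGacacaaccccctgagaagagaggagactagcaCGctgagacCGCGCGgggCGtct
Dntt: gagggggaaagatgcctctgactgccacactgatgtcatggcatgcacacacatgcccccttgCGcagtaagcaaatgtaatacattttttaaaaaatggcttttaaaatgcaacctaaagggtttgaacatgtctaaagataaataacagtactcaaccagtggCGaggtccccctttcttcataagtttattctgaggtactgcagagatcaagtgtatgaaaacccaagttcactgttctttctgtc

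In windows of 300 bases around the start, the 10201 tested genes with a RefSeq promoter had a median of 21 CG, and 80.8% had 10 or more. The 155 matched genes of the 204 higher in transplant Ezh2 KO had a median of 16 (65.2% with 10 or more), and the 84 matched of the 114 lower a median of 7 (39.3%). A match describes the letters only, and both called sets held fewer CG than the tested genes.

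Pbx3, Bex4 and Plag1 were higher in Ezh2 KO and did not pass against Control in Jarid2 KO. Pbx3, a homeodomain cofactor of Hox proteins, stood at 27.3 and 36.3 CPM in baseline Control, 32.2 and 26.5 in Jarid2 KO and 97.0 and 95.4 in Ezh2 KO (log2 change 1.60, SE 0.13, edgeR FDR 0.00278). After transplantation it stood at 6.80 CPM in Control, 3.32 and 3.77 in Jarid2 KO and 35.8 and 36.4 in Ezh2 KO (2.41, SE 0.15, edgeR FDR 0.00095). The test between knockouts gave -1.71 and -3.35 for Jarid2 KO minus Ezh2 KO (edgeR FDR 0.00126 and 5.7e-05). Bex4, an X-linked gene known from brain, stood at 6.43 and 11.2 CPM in baseline Control and 21.1 and 33.0 in Ezh2 KO. After transplantation it stood at 1.54 CPM in Control, 0.842 and 0.553 in Jarid2 KO and 27.6 and 22.8 in Ezh2 KO. Plag1, a zinc finger activator of growth genes, stood at 0.635 CPM in transplant Control, 0.842 and 0.904 in Jarid2 KO and 21.4 and 21.1 in Ezh2 KO (5.05, SE 0.24, edgeR FDR 0.000521).

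Mab21l2, Chl1, Gria2 and Auts2 were also higher in transplanted Ezh2 KO. They were named for the size of their change and belong to no fixed list. Mab21l2, a gene of eye development, had 0 UMIs in the selected cells of transplant Control and 2759 and 2159 UMIs in Ezh2 KO, or 56.6 and 58.9 CPM. Against 3 counts in the Control library, its level was at least 212-fold higher in Ezh2 KO. Jarid2 KO held 4 and 12 UMIs of it (0.198 and 0.603 CPM), and the lower of these lay under the 0.272 CPM that 3 counts make in Control. Chl1, a neural adhesion molecule, was higher in the selected cells than in cells without Dntt in all 11 libraries (log2 difference 3.26). It stood at 0.998 CPM in transplant Control, 5.69 and 5.27 in Jarid2 KO and 43.0 and 45.3 in Ezh2 KO. It passed in both knockouts (2.45, edgeR FDR 0.0277, and 5.46, edgeR FDR 0.000263). Gria2, a glutamate receptor subunit, stood at 0.816 CPM in transplant Control, 11.5 and 10.0 in Jarid2 KO and 17.8 and 19.2 in Ezh2 KO, and also passed in both. Auts2, a neurodevelopmental gene, stood at 8.44 CPM in Control, 16.1 and 14.8 in Jarid2 KO and 91.3 and 84.4 in Ezh2 KO (3.38, SE 0.15, edgeR FDR 0.000521).

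Hnf4a, a nuclear receptor of liver and gut, stood at 2.99 CPM in transplant Control, 6.48 and 8.14 in Jarid2 KO and 23.2 and 22.2 in Ezh2 KO (2.92, SE 0.22, edgeR FDR 0.0019). It also passed at baseline in Ezh2 KO (0.77, edgeR FDR 0.0186). Mpped2, a metallophosphoesterase, stood at 20.0 and 20.8 CPM in baseline Control, 23.3 and 22.8 in Jarid2 KO and 43.6 and 44.3 in Ezh2 KO. Bmpr1a, a receptor for bone morphogenetic proteins, stood at 1.90 and 5.86 CPM in baseline Control and at 17.7 and 24.0 in Ezh2 KO (2.49, SE 0.22, edgeR FDR 0.00397). After transplantation it had 0 UMIs in Control and 496 and 289 in Ezh2 KO, at least 33.2-fold higher. Jarid2 KO held 53 and 49 UMIs, at least 9.34-fold higher, and did not pass (edgeR FDR 0.0656). Of the 14 listed developmental Polycomb targets only 1 was expressed enough to be tested in either experiment, and it passed in no comparison with Control.

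Stem cell genes moved within the transplanted Ezh2 KO selection. Of 14 listed stem genes tested, 3 were called higher than in Control, Mllt3 and Gata2 among them, and none was called lower. Their median log2 change was 0.51, against 0.01 over all genes. Over all tested genes 1.51% were called higher and 0.846% lower. Mllt3, a regulator of stem cell maintenance, stood at 13.4 CPM in transplant Control, 21.1 and 19.1 in Jarid2 KO and 39.7 and 48.3 in Ezh2 KO (1.71, SE 0.17, edgeR FDR 0.00615). Gata2, a stem and progenitor factor, passed by 0.70 (edgeR FDR 0.0289) but not in male cells only (0.91, edgeR FDR 0.131).

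Megakaryocyte and erythroid transcripts had a higher summed level in these libraries, although 1 of 11 tested genes passed singly. The summed level of the listed genes was 227 CPM in the transplant Control selection, 246 to 257 CPM in the Jarid2 KO libraries and 449 to 484 CPM in the Ezh2 KO libraries, and of the listed basophil and mast cell genes 61.7, 53.3 to 68.2 and 101 to 102 CPM. The gene that passed against Control was Car2 (0.89, edgeR FDR 0.0341), a carbonic anhydrase, where 1.51% of all tested genes were higher. The median log2 change of the 11 was 1.18, against 0.01 over all genes. The part of these transcripts in the Mllt3 and Gata2 changes was not tested.

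Myeloid genes differed at baseline. Of 14 listed genes 5 were lower and 1 higher in Jarid2 KO than in Control (median log2 change -0.34, against -0.00109 over all genes). Over all tested genes 0.598% were lower and 0.383% higher. Ctsg, a neutrophil granule protease, stood at 73.8 and 78.2 CPM in Control and 34.2 and 27.3 in Jarid2 KO (-1.31, SE 0.10, edgeR FDR 0.00367). Irf8 stood at 63.8 and 67.7 CPM in Control and 34.9 and 34.5 in Jarid2 KO (-0.92, SE 0.11, edgeR FDR 0.0205), a call lost without Jarid2 KO replicate 2. Prtn3, Csf1r and F13a1, a further granule protease, the macrophage growth factor receptor and a clotting factor of monocytes, also fell (edgeR FDR 0.0403 to 0.0488). Each of these 3 calls was lost without Control replicate 2 or without Jarid2 KO replicate 2. Elane, neutrophil elastase, went the other way, from 4.58 and 5.34 CPM in Control to 17.0 and 18.97 in Jarid2 KO (1.87, SE 0.17, edgeR FDR 0.00863). In baseline Ezh2 KO Elane and Ms4a3, a membrane protein of granulocyte progenitors, were higher (1.02 and 1.27, edgeR FDR 0.0352 and 0.0456), and Prtn3 was lower (-0.43, edgeR FDR 0.0186). Elane turned to -1.09 there when no B-lineage gene was allowed (edgeR FDR 0.227). All 3 calls were lost without Control replicate 2 or Ezh2 KO replicate 2, and that of Ms4a3 also with DESeq2 and without Control replicate 1 or Ezh2 KO replicate 1.

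In baseline Jarid2 KO 1 of 13 tested early B genes (Blnk) and 1 of 3 priming markers (Cmah) were lower and none was higher, where 0.598% of all tested genes were lower. The median log2 changes were -0.12 for the early B genes and -0.74 for the 3 markers, against -0.00109 over all genes. Of 14 lymphoid receptors 1, Ccr9, was higher and none lower, where 0.383% of all tested genes were higher. Blnk, an adaptor of the B-cell receptor, stood at 18.8 and 14.7 CPM in Control and 5.65 and 7.57 in Jarid2 KO (-1.35, SE 0.17, edgeR FDR 0.0232). Cmah stood at 122 and 88.5 CPM in Control, 56.4 and 59.2 in Jarid2 KO and 97.3 and 63.3 in Ezh2 KO (-0.85, SE 0.14, edgeR FDR 0.0456), a call lost with DESeq2 and without Control replicate 1. Plasma cell transcripts stood apart in single libraries. Igkc, an immunoglobulin light chain, stood at 38.7 CPM in male and 1451 in female Jarid2 KO, at 25.5 and 411 in Ezh2 KO, and at 13.8 and 17.5 in Control. Igha, a heavy chain, passed in Jarid2 KO (edgeR FDR 0.0205) on values of 8.16 and 178 CPM against 1.85 and 1.26, and the call was lost without the female library (Jarid2 KO replicate 2). It also passed in Ezh2 KO (5.34, edgeR FDR 0.0149), at 12.0 and 107 CPM, a call lost with DESeq2 and without Control replicate 2. The source of these transcripts was not tested.

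In transplanted Ezh2 KO 2 of 14 listed myeloid genes, Csf1r and F13a1, were called lower and none higher (median log2 change -0.02, against 0.01 over all genes). Over all tested genes 0.846% were called lower and 1.51% higher. Csf1r stood at 18.1 CPM in Control, 12.0 and 9.74 in Jarid2 KO and 6.24 and 6.57 in Ezh2 KO (-1.50, SE 0.17, edgeR FDR 0.0089; -1.29 in male cells only, edgeR FDR 0.0863). Of 15 tested genes of T and innate lymphoid cells, 2 were lower, the T-lineage factors Tcf7 and Bcl11b, and none was higher, while the list's median log2 change was 0.25, against 0.01 over all genes. Bcl11b stood at 9.71 CPM in Control, 1.53 and 3.16 in Jarid2 KO and 0.657 and 0.300 in Ezh2 KO (-4.28, edgeR FDR 0.00898). In male cells only neither passed (edgeR FDR 0.806 for Tcf7 and 0.0848 for Bcl11b).

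Much of the lymphoid programme did not pass any test against Control. None of the lymphoid transcription factors was called in any genotype contrast (19 tested at baseline and 18 after transplantation), and none of the 14 tested recombination genes against Control. Flt3 stood at 570 and 502 CPM in baseline Control, 568 and 564 in Jarid2 KO and 590 and 495 in Ezh2 KO, and at 230, 254 and 258, and 227 and 215 after transplantation, and passed in no contrast with Control. None of the 15 genes of the G2 and M phases or the 15 of the S phase passed in any genotype contrast. Of the CDK inhibitors only Cdkn2c passed against Control, higher in baseline Ezh2 KO (0.53, edgeR FDR 0.0282). Over all tested genes, 0.0446% to 1.51% were called in a given direction against Control, and 0.376% to 3.59% between the knockouts. At such shares a list of this size without a call says little about its genes. A gene that misses the threshold is not shown to be equal.

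The knockouts were also compared directly. At baseline 56 genes were higher (0.376%) and 163 lower (1.09%) in Jarid2 KO than in Ezh2 KO, and after transplantation 254 (1.89%) and 484 (3.59%). Arpp21 was lower in Jarid2 KO by 0.88 at baseline (edgeR FDR 0.00473) and by 0.91 after transplantation (edgeR FDR 0.0114; 0.0547 in male cells only). Il7r was lower at baseline (-0.88, SE 0.12, edgeR FDR 0.0233), a call lost without Jarid2 KO replicate 1 or Ezh2 KO replicate 2. Of 12 interferon-stimulated genes 7 were lower at baseline in Jarid2 KO than in Ezh2 KO (median -0.63, against -0.00134 over all genes). Isg15, an interferon-induced ubiquitin-like protein, stood at 19.3 and 24.8 CPM in Control, 15.8 and 22.0 in Jarid2 KO and 30.4 and 32.8 in Ezh2 KO (-0.76 between the knockouts, SE 0.10, edgeR FDR 0.0139), a call lost without Jarid2 KO replicate 1.

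After transplantation 4 of 8 tested genes of the dendritic cell list were higher in Jarid2 KO than in Ezh2 KO and 1 was lower (median 1.57). Over all tested genes 1.89% were higher and 3.59% lower. The lower one was Siglech, a lectin of plasmacytoid dendritic cells (-1.67, edgeR FDR 0.011). The 4 belong to the MHC class II system. H2-Ab1, a class II chain, stood at 76.5 CPM in Control, 114 and 129 in Jarid2 KO and 30.5 and 44.2 in Ezh2 KO (1.70, SE 0.18, edgeR FDR 0.00446). H2-Aa, H2-Eb1 and their activator Ciita passed the same way, Ciita not in male cells only (edgeR FDR 0.0868). Stem genes were split, with Hlf, Hoxb5 and Meis1 higher in Jarid2 KO and Mllt3 and Gata2 among those lower. Hlf stood at 71.4 CPM in Control, 142 and 126 in Jarid2 KO and 89.8 and 92.5 in Ezh2 KO (0.55, edgeR FDR 0.0322). Meis1, a partner of Hox proteins, stood at 93.3, 101 and 93.7, and 61.6 and 63.6 CPM in the same order (0.64, edgeR FDR 0.0146). Both lost the call without Ezh2 KO replicate 1 or 2.

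Whether a genotype change was particular to the selected cells was tested as the difference from the change in the other cells of the same libraries. At baseline edgeR called 0 genes higher (0%) and 2 lower (0.0113%) of 17692 for Jarid2 KO, with 837 at an unadjusted p under 0.05. For Ezh2 KO it called 11 (0.0622%) and 52 (0.294%), and for Jarid2 KO minus Ezh2 KO 46 (0.260%) and 10 (0.0565%). After transplantation, of 15447 genes, it called 105 (0.680%) and 197 (1.28%) for Jarid2 KO, 311 (2.01%) and 359 (2.32%) for Ezh2 KO, and 517 (3.35%) and 824 (5.33%) between the knockouts. Against cells without Dntt alone, the baseline counts were 10 for Jarid2 KO and 2 for Ezh2 KO. After transplantation the change of Mycn exceeded that in other cells by 1.18 in Jarid2 KO and 1.25 in Ezh2 KO (edgeR FDR 0.00497 and 0.000882). That of Mllt3 exceeded it by 1.24 in transplant Ezh2 KO (SE 0.12, edgeR FDR 1.78e-06). For Hmga2 and Ccr9 no such difference passed. The values nearest the threshold were 0.69 for Hmga2 in baseline Ezh2 KO (edgeR FDR 0.0865) and 0.95 for Ccr9 in transplant Ezh2 KO (edgeR FDR 0.135).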

How the data were processed

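Droplet gene-expression (Chromium 3′) libraries of KSL cells, 6 baseline and 5 transplant, were used together with the antibody counts of the baseline cells. CUT&Tag samples were not analysed here. The deposited values were raw UMI counts per gene and barcode, whole numbers throughout. Per the file headers the baseline counts were made with Cell Ranger 7.2.0 and the transplant counts with 6.1.2, while the submitters' processing notes list Cell Ranger 3.1.0, Seurat 3.0 and the builds mm10 and mm39 without a role. For the annotation, the strand rule and introns, the settings are not stated in the labels or headers.

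Of 97066 barcodes, 78945 with at least 1000 UMIs, 500 genes and at most 10% mitochondrial UMIs were kept. The median selected cell detected 3538 to 4396 genes. Selected cells were summed per library, giving 11605979 to 49506991 UMIs, and tested with edgeR 4.0.16 (R 4.3.3; quasi-likelihood, two-sided, TMM, filterByExpr, BH adjustment over all tested genes, FDR 0.05). The baseline fit had genotype and sex, the transplant fit genotype alone. The difference between selected and other cells was fitted with the library as block. CPM are TMM-scaled. Shares have exact (Clopper-Pearson) intervals. With a floor of 3 counts, folds against a library at 0 are lower bounds. Antibodies and shares were tested with exact permutation tests (scipy 1.17.1). The replicate numbers mark sex at baseline, where same-sex libraries deviated together (r 0.56 to 0.64 over 9001 genes), so the sex term serves as the block.

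The automatic Scrublet threshold (scanpy 1.11.5) marked 0 to 176 cells per library and was judged not to have worked, so the highest scores, up to 0.8% per 1000 barcodes, were removed as an alternative only. Further alternatives were DESeq2 1.42.0, no gene filter, at least 10 CPM, other Dntt and B-gene limits, a strict cell filter (2000 UMIs, 5% mitochondrial), no sex term, male cells only, and each library left out. After the data had been seen, a fit of the knockout libraries alone and a comparison with cells without Dntt only were added. The edgeR steps were tested on simulated data.

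The selection rule, 19 gene lists and tests were chosen with earlier results of these data known. Named genes are list members and, per contrast, up to 10 with the largest changes among those called, reaching 10 CPM, with groups that do not overlap and an established symbol. Some list members are not reported here.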

Additional observations from a re-analysis of the deposited data

Results flagged for a closer look

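For 17 named changes the difference between the selected and the other cells of the same libraries was itself called by edgeR, and each was also called against cells without a Dntt UMI only. In the changes listed here, a positive difference means a change that was higher in the selected cells.

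In transplant Jarid2 KO against Control, Mycn changed by 2.38 (log2) in the selected cells, 1.18 above the other cells. Il18r1 changed by 1.65 and exceeded the other cells by 0.77 (edgeR FDR 0.00606), and Itsn1 changed by 2.41 and exceeded them by 0.70 (edgeR FDR 0.0193).

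In transplant Ezh2 KO against Control, the difference was 1.63 for the nuclear receptor Hnf4a, 1.25 for Mycn, 1.24 for Mllt3 and 1.14 for Auts2. It was 0.84 for Asns, which encodes asparagine synthetase and changed by 2.70 in the selected cells. For Il18r1 it was 0.66, for Pbx3 0.60, for Gata2 0.56, for the zinc finger factor Klf6 0.56 and for Car2 0.43. Csf1r and F13a1 fell in the selected cells (-1.50 and -0.79) by more than in the others, with differences of -1.05 and -0.61. Adgrl4, an adhesion receptor, fell by 0.91 in the selected cells, which was 0.25 less than in the others (edgeR FDR 0.00375).

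At baseline Il1rapl2, a relative of the interleukin-1 receptor, changed by 1.53 in selected Ezh2 KO cells, 1.29 above the other cells (SE 0.11, edgeR FDR 0.00359). It stood at 55.1 and 24.1 CPM in Control, 115 and 116 in Jarid2 KO and 138 and 85.5 in Ezh2 KO. The causes of these differences were not tested.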

How the results depend on the processing

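Counts of called genes moved more than directions. With 146, 199 and 219 baseline calls (for Jarid2 KO and then Ezh2 KO against Control, and for Jarid2 KO against Ezh2 KO), no filter on low counts gave 634, 854 and 880, no sex term 0, 2 and 4 (1304, 1360 and 1420 at an unadjusted p under 0.05), at least 1 Dntt UMI gave 86 in the first and at least 10 CPM gave 96 in the last. After transplantation (19, 318 and 738 calls), no filter gave 96, 721 and 1357, male cells only 6, 71 and 343, DESeq2 46 in the first, and at least 10 CPM 140 and 233 in the others. For the differences from other cells (2, 63 and 56 calls at baseline), at least 10 CPM gave 1, 21 and 13, doublets removed gave 1 in the first, and cells without Dntt alone as comparison gave 10, 2 and 5. After transplantation (302, 670 and 1341) that comparison gave 418 and 709 in the last 2 contrasts. For differences from cells without Dntt (6749), at least 10 CPM gave 4441, and for those from the B-lineage neighbour (10383), transplant libraries alone gave 6566.

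Leaving out 1 library gave 35 (without Jarid2 KO replicate 2) to 281 (without Ezh2 KO replicate 1), 135 (without Ezh2 KO replicate 1) to 331 (without Jarid2 KO replicate 1), and 87 (without Jarid2 KO replicate 1) to 520 (without Control replicate 1) baseline calls. The differences from other cells ranged from 1 to 6, 30 to 355 and 6 to 449. After transplantation the ranges were 13 to 48 (without Jarid2 KO replicate 1), 151 (without Ezh2 KO replicate 1) to 526 (without Jarid2 KO replicate 2), and 346 (without Ezh2 KO replicate 1) to 772, and for the differences from other cells 248 to 589, 531 to 1109, and 837 to 1413. No difference in the share of cells changed direction under the alternatives fixed for it, but in cells scored male the baseline shares were 19.37% in Control and 19.65% in Jarid2 KO, and the difference of baseline Jarid2 KO from Control was near 0 without Jarid2 KO replicate 2.

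CD117, not called on the centred scale, was lower as a share of antibody UMIs (-4.59 points) and as a median (-47.1 UMIs). Both of these passed (exact permutation, adjusted p = 0.03125). Elane reversed in baseline Ezh2 KO with no B-lineage gene allowed (-1.09) and between transplant knockouts in male cells only (-0.0647), and Gnb4 reversed in transplant Jarid2 KO in male cells only (0.40). With a replicate block over the transplant knockouts 632 genes were called, against 772 without it in the same libraries. Same-numbered transplant libraries deviated with an r of 0.0526 over 8156 genes, so the numbers are not known to pair. The causes were not tested. Depth limits low genes: the smallest sum, transplant Control, held 11605979 UMIs.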
